A study of Homo sapiens with 8 samples.

Results

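The transcripts of 31 direct target genes of the tumour suppressor p53 were followed through eIF2A knockdown in human HEK293T and H9 cells. The genes were named as reported p53 targets by a rule that uses no measured value, although the list was drawn up with earlier results of these data known. All 31 were found among the 19305 RefSeq accessions counted and passed the filter on low counts, with 14565 genes tested in all. They fall into 5 roles: feedback on p53 (7 genes), cell cycle arrest and antiproliferative action (6), cell death and survival (9), DNA repair and nucleotide supply (4), and metabolism and mitochondria (5). Polyadenylated RNA was sequenced in 8 libraries, 2 in each of 4 groups. H9 cells, which are human embryonic stem cells, carried an shRNA against eIF2A or a control shRNA and had no arsenite treatment named. HEK293T, a transformed human embryonic kidney line, was given sodium arsenite, an oxidative stressor, in both of its groups, and carried an siRNA against eIF2A or a control siRNA. The sequences of the siRNA and shRNA, the arsenite dose and the length of treatment are not stated in the labels. These number the libraries as sets and name no separate cultures, so the p-values reflect the spread between libraries, which may be technical.

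p53 is a transcription factor that is kept low in unstressed cells by the ubiquitin ligase MDM2, itself a p53 target. DNA damage and other stresses release it, and it then binds paired half-sites in DNA and raises genes that stop the cell cycle, repair DNA, start apoptosis or feed back on p53 itself. HEK293T cells express the SV40 large T antigen, which binds p53 and holds much of its activity, whereas H9 cells carry no such antigen. Human embryonic stem cells are known to enter apoptosis readily when p53 is activated. The p53 protein and its activity were not measured here. The depleted protein, eIF2A, can deliver initiator tRNA to ribosomes.

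The sequence shared by p53 targets is the binding site, so the promoters of the members are given first. RefSeq promoter windows, from 250 bases before to 50 bases after a transcript start (GRCh38.p14), were at hand for 26 of the 31 members, in 37 windows. Both strands are covered by the search, since the p53 half-site reads the same on either one. A pair of half-sites no more than 13 bases apart, with the C and G core kept in each and at most 2 mismatches elsewhere, was found in 6 of the 37 windows (16.2%), against 1030 of 35116 windows in the whole table (2.93%). These 6 windows belong to 5 members. With no mismatch allowed, DDB2 alone had a pair, against 10 of all 35116 windows (0.0285%). A match is a description of the letters and not a measured binding site. The 3 windows printed whole belong to members with opposite or unequal values in the 2 lines, and for FAS and AEN only the pair is printed. Half-sites are in capitals, 5′ to 3′ on the strand of the gene.
MDM2, chr12:68808767-68809066, plus strand, pair at -94 to -75 from the start: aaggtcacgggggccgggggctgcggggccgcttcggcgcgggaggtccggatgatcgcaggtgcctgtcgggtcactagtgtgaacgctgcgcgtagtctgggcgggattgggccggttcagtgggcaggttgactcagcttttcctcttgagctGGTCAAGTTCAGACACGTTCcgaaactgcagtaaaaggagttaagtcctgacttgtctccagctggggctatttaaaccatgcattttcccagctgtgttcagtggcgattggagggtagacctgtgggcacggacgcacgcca
FDXR, chr17:74872945-74873244, minus strand, pair at -31 to -2, half-sites 10 bases apart: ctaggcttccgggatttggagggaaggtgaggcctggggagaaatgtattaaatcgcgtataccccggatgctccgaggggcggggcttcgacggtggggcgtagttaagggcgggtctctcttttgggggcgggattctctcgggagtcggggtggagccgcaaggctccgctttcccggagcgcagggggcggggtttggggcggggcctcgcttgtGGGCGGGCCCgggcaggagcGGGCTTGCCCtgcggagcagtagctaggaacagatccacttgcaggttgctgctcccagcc
DDB2, chr11:47214724-47215023, plus strand, pair at 5 to 25 after the start, half-sites 1 base apart: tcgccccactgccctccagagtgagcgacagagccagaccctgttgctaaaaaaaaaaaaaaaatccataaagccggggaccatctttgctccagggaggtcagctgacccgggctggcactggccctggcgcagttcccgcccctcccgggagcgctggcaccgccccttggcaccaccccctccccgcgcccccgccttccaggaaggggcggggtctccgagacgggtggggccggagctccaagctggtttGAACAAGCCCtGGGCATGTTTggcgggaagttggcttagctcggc
FAS, window chr10:88991181-88991480, plus strand, pair at -122 to -103: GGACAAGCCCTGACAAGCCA
AEN, window chr15:88621090-88621389, plus strand, pair at -34 to -15: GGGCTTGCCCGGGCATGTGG
The MDM2 and FAS pairs abut with no base between them and carry 2 mismatches each, as does the AEN pair. The FDXR pair also has 2 mismatches. A second, overlapping MDM2 window holds the same pair. The other 21 members with a window had no such pair in it, which says nothing of sites outside these windows.

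Gene counts per library lay between 21837052 and 32318668. Replicates differed by more than sampling noise in every group, with a chi-square per degree of freedom of 1.35 for H9 eIF2A shRNA, 1.51 for H9 control shRNA, 1.8 for HEK293T eIF2A siRNA and 4.91 for HEK293T control siRNA, so the HEK293T controls were the least alike. Reads that matched no counted feature made up 20.84 and 20.63% with eIF2A shRNA against 18.84 and 18.39% in the H9 controls, and 14.98 and 14.95% with eIF2A siRNA against 15.59 and 17.68% in the HEK293T controls. Of 6 pluripotency markers, all were above 1 CPM in every H9 library (summed 4710 and 4780 CPM with eIF2A shRNA against 5060 and 5090 CPM in controls). In the HEK293T libraries NANOG and L1TD1 were at 0 and POU5F1 and LIN28A under 1 CPM. SOX2, at 4.44 to 6.90 CPM, and DNMT3B, at 129 to 145 CPM, were detected there. The targeted transcript EIF2A was at 5.03 and 4.67 CPM in the eIF2A shRNA libraries, against 15.8 and 14.8 CPM in the controls, a log2 fold change of -1.66 ± 0.11 (SE, adjusted p = 2.33e-15). In HEK293T it was at 5.58 and 5.98 CPM in the eIF2A siRNA libraries, against 17.5 and 18.3 CPM in the controls, a log2 fold change of -1.63 ± 0.095 (adjusted p = 6.63e-15). All 4 knockdown libraries lay below the controls of their line. The log2 fold changes of the 2 lines differed by -0.021 ± 0.15 (H9 minus HEK293T, adjusted p = 0.939) as measured. In a fit with the trend of transcript GC content and length removed they differed by -0.63 (adjusted p = 6.71e-04), and that difference was called.

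In H9, eIF2A knockdown went with higher levels of most p53 targets, among them the MDM2 ligase, the cell cycle inhibitor CDKN1A, the antiproliferative genes PLK2 and BTG2 and the RNA-binding protein ZMAT3. By edgeR's quasi-likelihood test at a Benjamini-Hochberg adjusted p under 0.05, 21 of the 31 members rose, against 37.0% of all genes tested, and 5 fell, against 34.3%. Their median log2 fold change was 0.72, against 0.024 over all genes. An increase of at least 2-fold was found for 11 members (35.5%), against 15.9% of all genes, and a decrease of that size for none, against 0.899%. Both eIF2A shRNA libraries lay above both controls for 23 members, against 43.9% of all genes, and below both for 5, against 41.0%. In bulk RNA, fewer cells with a transcript and less of it per cell cannot be told apart.

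Many genes moved in H9, and how far depended on the base composition of their transcripts. Of the genes tested, the log2 fold change in H9 had a Spearman rho of -0.675 with transcript GC content over 14489 genes, and -0.443 over the 31 members, which are counted from the same libraries. Genes with transcripts under 45% GC had a median log2 fold change of 0.85, those of 45 to 55% GC 0.058 and those over 55% GC -0.36. Each member is therefore given below as measured and from a fit in which the trend with transcript GC content and length was removed from every library. With the trend removed, 19 members rose in H9, against 23.9% of all genes, and 3 fell, against 25.5%, and the median was 0.33, against 0.012 over all genes. Whether the trend comes from the cells or from the libraries was not tested. Length and GC content were read from annotated transcripts, which may not be the forms expressed, and a few are very long (MDM2 12633 nt, FBXO22 10725 nt, RPS27L 6434 nt).

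**Figure D1:**
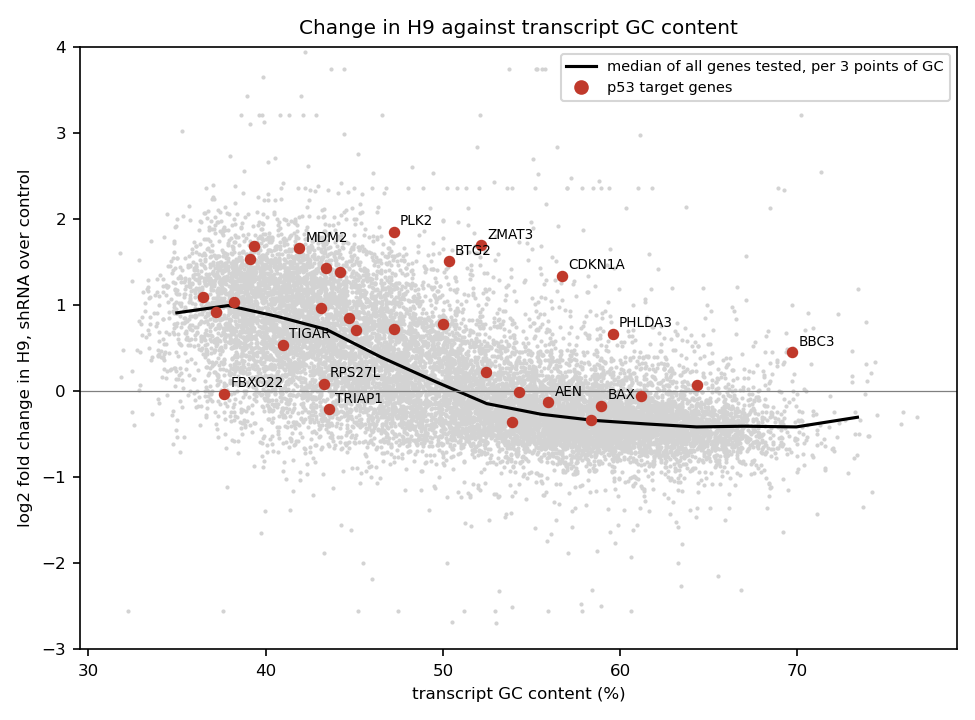
Log2 fold change in H9 (eIF2A shRNA over control shRNA, as measured) against transcript GC content in percent; grey points are all genes tested with a transcript match, red points the 31 p53 target genes, and the line the median per 3 points of GC content in bins of at least 20 genes. The median line falls with GC content over most of its range, and 45 genes lie outside the range drawn; CDKN1A, PHLDA3 and BBC3 lie above the line at high GC content, while FBXO22, RPS27L and TRIAP1 lie below it at low GC content.

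Among the feedback genes, 5 of 7 rose in H9 as measured and none fell, with a median log2 fold change of 1.04. With the trend removed 4 rose and 2 fell, with a median of 0.335. For this and each role below, the shares of all genes in H9 were 37.0% higher and 34.3% lower as measured. They were 23.9 and 25.5% with the trend removed. MDM2, the ligase that marks p53 for degradation, stood at 38.5 and 38.5 CPM in the eIF2A shRNA libraries, against 12.7 and 11.6 CPM in the controls. The groups did not overlap, and MDM2 rose by 1.66 ± 0.073 (SE) on the log2 scale (adjusted p = 5.39e-20), or by 0.59 with the trend removed (adjusted p = 1.80e-08). ZMAT3 was at 5.06 and 5.39 CPM with eIF2A shRNA against 1.86 and 1.33 CPM with control shRNA and rose by 1.70 ± 0.20 as measured and 1.77 with the trend removed. TP53INP1, a stress protein that works with p53 in arrest and death, reached 6.11 and 5.77 CPM with eIF2A shRNA against 1.91 and 1.78 CPM with control shRNA, a rise of 1.68 ± 0.18, or 0.70 with the trend removed. All of these shRNA libraries lay far above their controls.

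CCNG1, a cyclin-like protein that recruits a phosphatase to MDM2, was at 110.1 and 114 CPM with eIF2A shRNA against 56.8 and 51.8 CPM with control shRNA. Its rise of 1.04 ± 0.048 shrank to 0.33 with the trend removed and was called in both fits. PPM1D, the phosphatase that removes activating phosphates from p53, was at 9.94 and 11.0 CPM with eIF2A shRNA against 6.71 and 6.02 CPM with control shRNA and rose by 0.71 ± 0.12 as measured, but its value with the trend removed was 0.068 (adjusted p = 0.684). RPS27L, a ribosomal protein paralog that binds MDM2, had 37.7 and 37.9 CPM with eIF2A shRNA against 35.0 and 36.2 CPM with control shRNA, and FBXO22, an F-box protein of p53 turnover, had 32.5 and 33.8 CPM with eIF2A shRNA against 35.2 and 32.3 CPM with control shRNA. Neither was called as measured in the fit with TMM scaling. With the trend removed their log2 fold changes were -0.80 and -1.16, both called lower, and their annotated transcripts are among the longest of the members. With DESeq2 size factors, and no trend removed, FBXO22 was also called lower (log2 fold change -0.19). RPS27L was called higher with upper-quartile scaling (0.16, adjusted p = 0.0185), opposite to its call with the trend removed.

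Cell cycle and antiproliferative genes gave 4 rises and 1 fall among 6 members, with a median of 1.15, and 4 rises and no fall with the trend removed (median 0.91). CDKN1A, which encodes the p21 inhibitor of cyclin-dependent kinases, stood at 43.0 and 43.5 CPM in the eIF2A shRNA libraries, against 15.5 and 18.7 CPM in the controls. The shRNA libraries were nearly equal and above both controls, and CDKN1A rose by 1.34 ± 0.072 (adjusted p = 9.12e-18). The rise with the trend removed, 1.72 (adjusted p = 2.05e-21), was larger than as measured, and the CDKN1A transcript holds 56.7% GC. PLK2, a polo-like kinase of the G1 phase, was at 8.12 and 9.46 CPM with eIF2A shRNA against 2.42 and 2.42 CPM with control shRNA and rose by 1.85 ± 0.16, or 1.56 with the trend removed. BTG2, an antiproliferative partner of the CCR4-NOT deadenylase, was at 15.9 and 15.8 CPM with eIF2A shRNA against 5.78 and 5.33 CPM with control shRNA and rose by 1.51 ± 0.10 and 1.49.

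E2F7, a repressor of E2F target genes, had 22.9 and 24.6 CPM with eIF2A shRNA against 12.5 and 11.8 CPM with control shRNA, a rise of 0.96 ± 0.087 that was not called with the trend removed (0.11, adjusted p = 0.322). PLK3, a stress-responsive polo-like kinase, had 11.3 and 11.6 CPM with eIF2A shRNA against 12.6 and 11.2 CPM with control shRNA, with overlapping groups. Its log2 fold change was -0.057 ± 0.10 as measured (adjusted p = 0.639) and 0.33 with the trend removed, where it was called. SERTAD1, a cofactor of CDK4 and E2F1, was at 13.1 and 14.3 CPM with eIF2A shRNA against 17.9 and 17.1 CPM with control shRNA and fell as measured (-0.36 ± 0.088, adjusted p = 4.84e-04), with -0.092 and no call when the trend was removed.

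**Figure D2:**
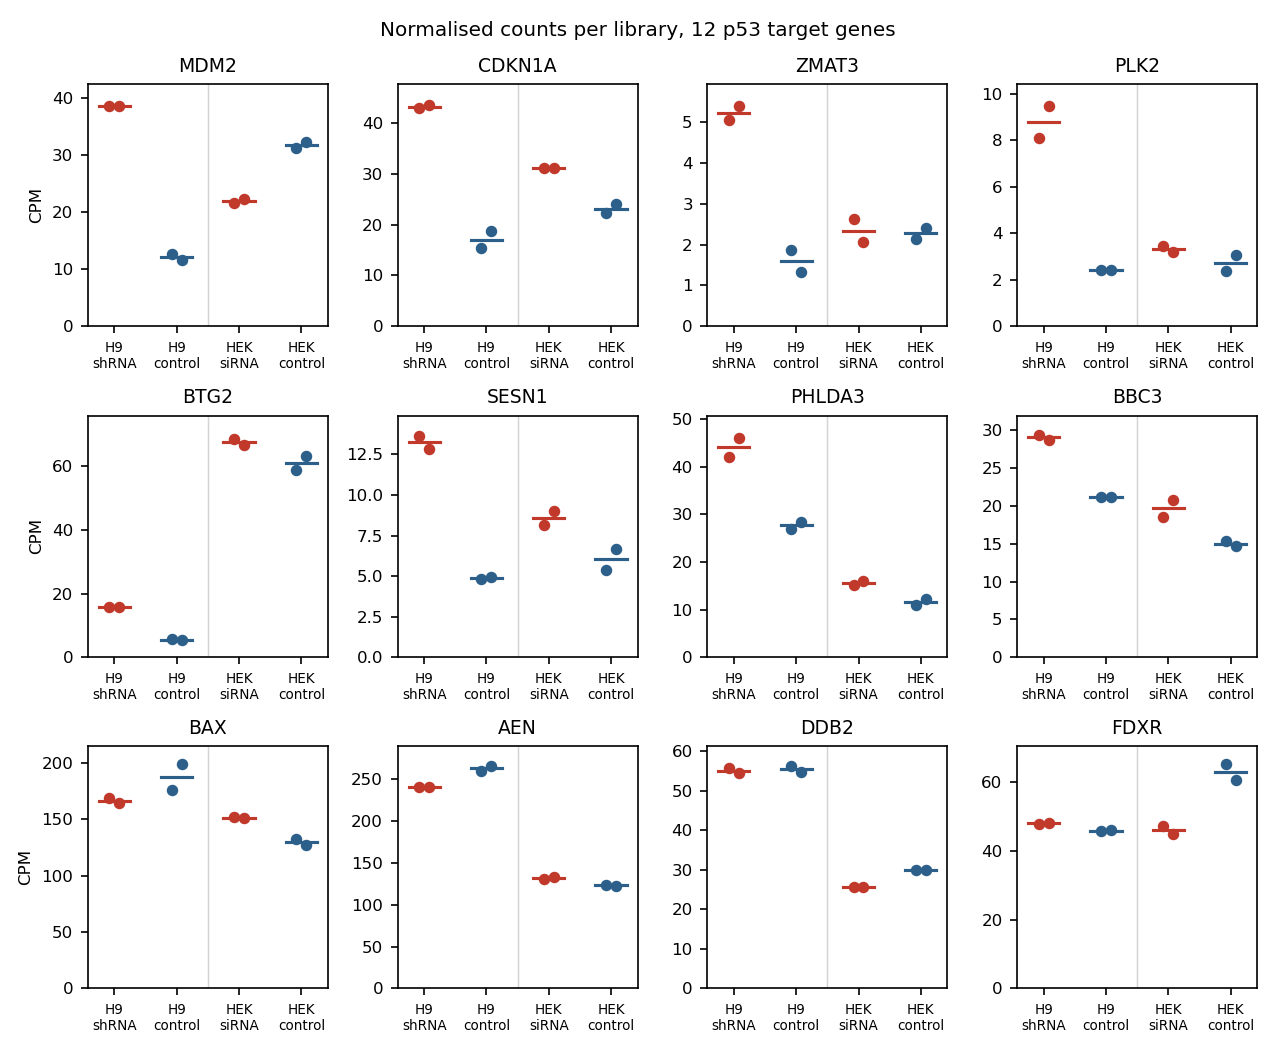
Normalised counts (CPM, linear axis from 0) of 12 p53 target genes in each library; points are libraries, bars the mean of 2, red the eIF2A knockdown and blue the control, with H9 on the left and HEK293T on the right of each panel. MDM2 is above its controls in H9 and below them in HEK293T, CDKN1A and PHLDA3 are above in both lines, and FDXR and DDB2 are below in HEK293T.

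Of 9 genes of cell death and survival, 6 rose and 3 fell in H9 as measured, with a median log2 fold change of 0.67. With the trend removed 6 rose and 1 fell, with a median of 0.38. BAX and AEN were then among the rises in place of FAS and APAF1. The BH3-only genes that start mitochondrial apoptosis both rose. PMAIP1, also called NOXA, was at 34.7 and 36.9 CPM with eIF2A shRNA against 19.3 and 18.4 CPM with control shRNA (log2 fold change 0.92 ± 0.072, 0.30 with the trend removed). BBC3, also called PUMA, was at 29.4 and 28.7 CPM with eIF2A shRNA against 21.2 and 21.2 CPM with control shRNA (log2 fold change 0.46 ± 0.071, 0.90 with the trend removed). In PMAIP1 and BBC3 the shRNA libraries were above both controls, and the call held in both fits. The fit with GC content alone removed, without a length term, left PMAIP1 at 0.054 (adjusted p = 0.546), so its call rests on how length is treated.

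Death receptor genes were higher too. TNFRSF10B, a receptor for the ligand TRAIL, was at 129 and 130.0 CPM in the eIF2A shRNA libraries, against 75.2 and 76.2 CPM in the controls, a rise of 0.78 ± 0.044 and of 0.59 with the trend removed. FAS, the receptor of FAS ligand, is a rare transcript here, with 29 and 23 counts in the eIF2A shRNA libraries and 6 and 9 counts in the controls. Its rise of 1.53 ± 0.41 (adjusted p = 0.00119) was not called with the trend removed (0.83, adjusted p = 0.107). APAF1, the scaffold of the apoptosome, had 4.79 and 5.22 CPM with eIF2A shRNA against 3.17 and 2.37 CPM with control shRNA, a rise of 0.84 ± 0.18 as measured and 0.12 with the trend removed (adjusted p = 0.613). PHLDA3, an inhibitor of the survival kinase AKT, was at 41.9 and 46.1 CPM with eIF2A shRNA against 26.9 and 28.5 CPM with control shRNA and rose by 0.67 ± 0.066 as measured and 1.02 with the trend removed.

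The 3 members that fell as measured were the pore-forming protein BAX, the nuclease AEN and the survival factor TRIAP1, which helps move lipids within mitochondria. BAX was at 169 and 164 CPM in the eIF2A shRNA libraries, against 176 and 199 CPM in the controls, a log2 fold change of -0.17 ± 0.042 (adjusted p = 5.81e-04). Without H9 control replicate 2, which was the higher control for BAX, this was -0.080 (adjusted p = 0.134). AEN was at 240.3 and 241 CPM with eIF2A shRNA against 260.4 and 266 CPM with control shRNA (-0.13 ± 0.033, adjusted p = 8.41e-04), and with upper-quartile scaling it was not called (-0.058, adjusted p = 0.128). With the GC and length trend removed, both were called higher, BAX at 0.38 and AEN at 0.10. TRIAP1 was at 56.9 and 57.4 CPM with eIF2A shRNA against 67.9 and 63.8 CPM with control shRNA and fell in both fits, by 0.21 as measured and by 0.52 with the trend removed.

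Repair and nucleotide supply genes gave 3 rises in 4 in both fits, not the same 3. POLH, a polymerase that copies past damaged bases, was at 13.1 and 13.7 CPM with eIF2A shRNA against 8.58 and 7.65 CPM with control shRNA and rose by 0.72 ± 0.098, or 0.38 with the trend removed. XPC, which recognises damage in nucleotide excision repair, had 39.7 and 39.5 CPM with eIF2A shRNA against 33.5 and 34.2 CPM with control shRNA and rose by 0.23 ± 0.060 and 0.23, although with DESeq2 size factors it was not called (0.067, adjusted p = 0.325). RRM2B, the p53-induced subunit of ribonucleotide reductase, was at 9.90 and 10.5 CPM with eIF2A shRNA against 5.13 and 4.39 CPM with control shRNA. Its rise of 1.09 ± 0.13 was not called with the trend removed (0.17, adjusted p = 0.309). DDB2, the sensor of ultraviolet lesions with the mismatch-free pair of half-sites, had 55.6 and 54.5 CPM with eIF2A shRNA against 56.1 and 54.6 CPM with control shRNA. Its log2 fold change was -0.0085 ± 0.050 as measured (adjusted p = 0.894), 0.32 with the trend removed (called higher) and -0.17 with DESeq2 size factors (called lower), so its direction depended on the fit.

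For the genes of metabolism and mitochondria, 3 of 5 rose and 1 fell as measured, and 2 rose with none lower when the trend was removed. SESN1, a sestrin that restrains the growth kinase mTORC1, was at 13.6 and 12.8 CPM in the eIF2A shRNA libraries, against 4.85 and 4.94 CPM in the controls, a rise of 1.44 ± 0.12 (adjusted p = 1.00e-12), or 0.79 with the trend removed. SPATA18, which acts in the clearance of damaged mitochondria, had 41 and 37 counts with eIF2A shRNA against 10 and 15 counts in controls, a rise of 1.39 ± 0.33 that was not called with the trend removed (0.71, adjusted p = 0.0792). TIGAR, a phosphatase that lowers glycolytic flux, had 9.70 and 10.9 CPM with eIF2A shRNA against 7.32 and 6.81 CPM with control shRNA, with a rise of 0.54 ± 0.12 as measured and -0.16 with the trend removed (adjusted p = 0.259). FDXR, a mitochondrial electron carrier reductase, had 47.8 and 48.2 CPM with eIF2A shRNA against 45.6 and 45.9 CPM with control shRNA, not called as measured (0.068 ± 0.055, adjusted p = 0.272) and called higher with the trend removed (0.54). TP53I3, a quinone oxidoreductase, was at 77.7 and 72.2 CPM with eIF2A shRNA against 94.4 and 95.8 CPM with control shRNA and fell by 0.34 as measured, with 0.085 and no call when the trend was removed.

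**Figure D3:**
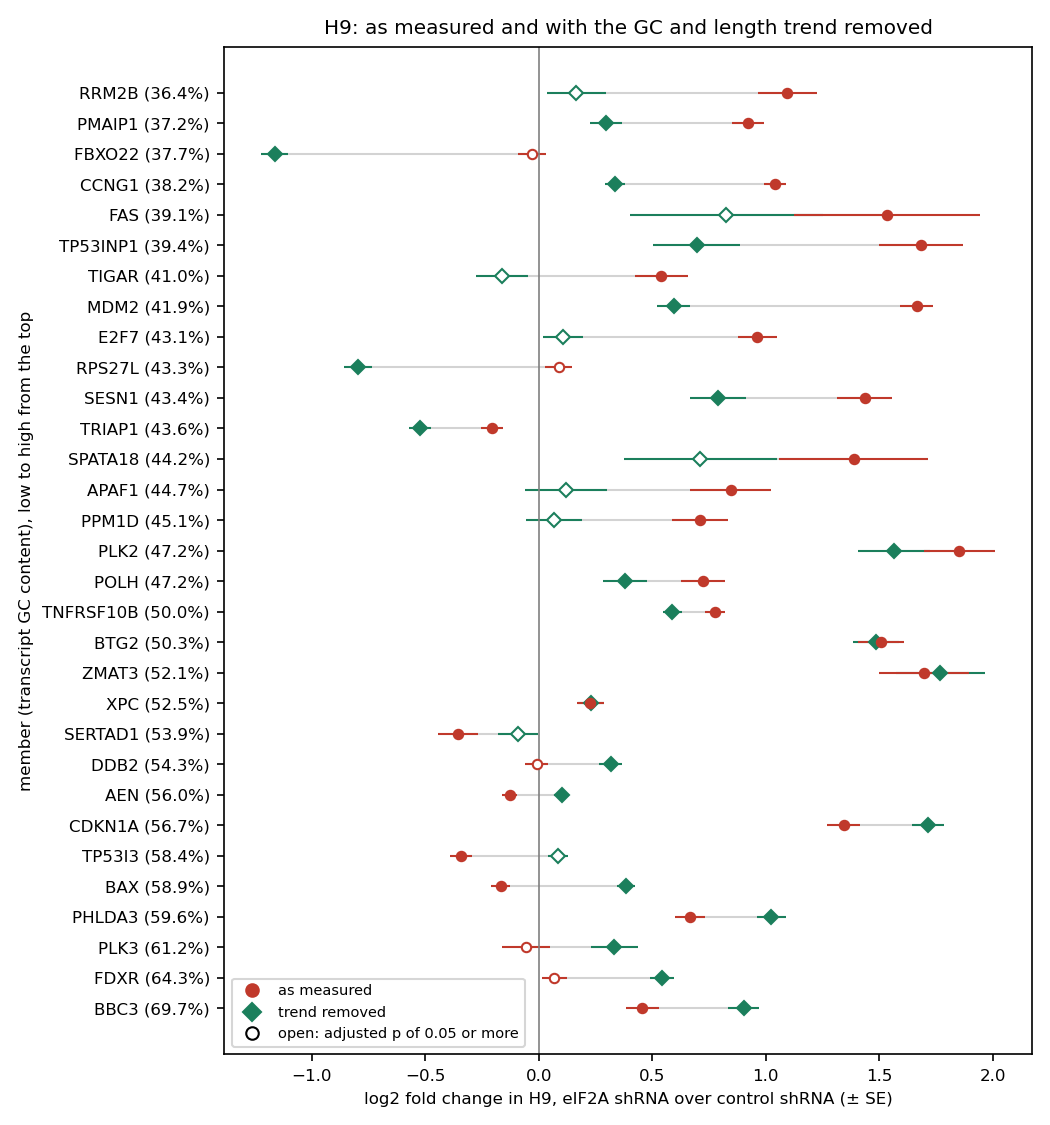
Log2 fold change in H9 (eIF2A shRNA over control shRNA, ± SE) of each p53 target gene as measured (red circles) and with the trend of GC content and length removed (green diamonds), ordered by transcript GC content; open symbols have an adjusted p of 0.05 or more. Members of low GC content move down and those of high GC content move up between the fits, which follows from removing a trend that falls with GC content. In both fits 14 members are called higher.

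Read across both fits, 14 members rose in H9 whichever was used: MDM2, CCNG1, TP53INP1 and ZMAT3 among the feedback genes, CDKN1A, BTG2 and PLK2 among the arrest genes, BBC3, TNFRSF10B, PMAIP1 and PHLDA3 among the death genes, XPC and POLH, and SESN1. Another 7 rose only as measured. A further 5 rose only with the trend removed, of which BAX and AEN fell as measured. The second fit subtracts a trend that falls with GC content in H9, so by construction it lowers values at low GC content and raises them at high. The 14 members under 45% GC had a median log2 fold change of 1.0 as measured, against 0.85 for all genes of that range, and of 0.23 with the trend removed. The 9 members of 45 to 55% GC had 0.72 as measured, against 0.058, and 0.38 with the trend removed. The 8 members over 55% GC had 0.0051 as measured, against -0.36, and 0.46 with the trend removed, where all 8 were positive. In that fit both shRNA libraries were above both controls for 24 members, against 37.7% of all genes, and below both for 4, against 36.3%.

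In arsenite-treated HEK293T cells the changes were smaller and went both ways: CDKN1A, BBC3, PHLDA3 and SESN1 rose, and MDM2, FDXR and DDB2 fell. As measured, 10 of the 31 members rose, against 14.1% of all genes tested, and 3 fell, against 14.7%, with a median log2 fold change of 0.098, against -0.0032 over all genes. None was called with a change of at least 2-fold, where 0.35% of all genes were higher and 0.323% lower by that rule. Both siRNA libraries lay above both controls for 16 members, against 28.7% of all genes, and below both for 6, against 30.1%. The trend with GC content was weak in this line (rho -0.101 over all genes). After its removal 8 members rose, against 13.9%, and 4 fell, against 13.4%. The siRNA libraries were then above both controls for 15 members and below for 7, against 29.0% of all genes in either direction.

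**Figure D4:**
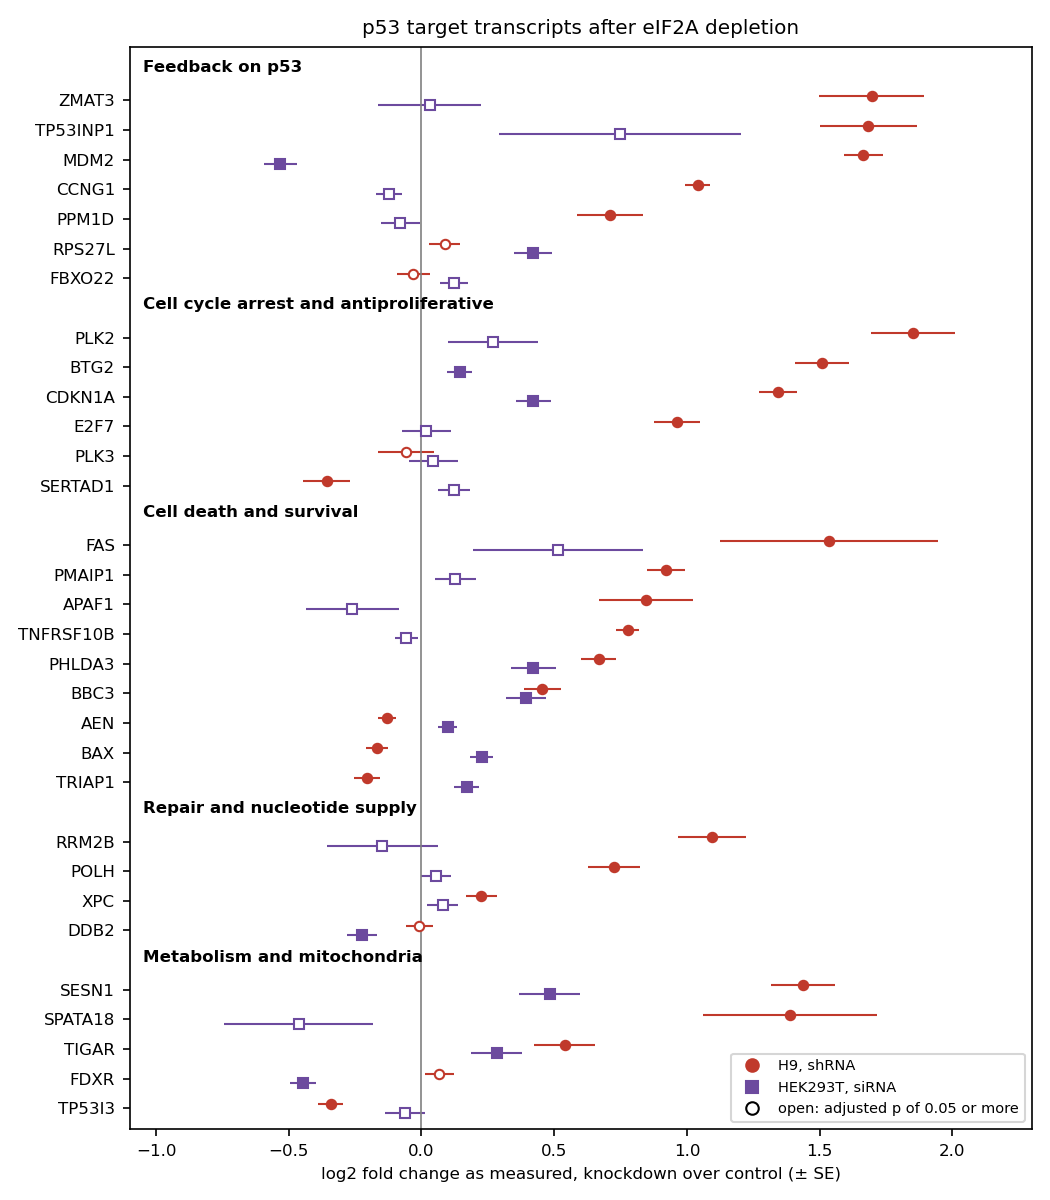
Log2 fold change as measured (eIF2A knockdown over control, ± SE) of the 31 p53 target genes, grouped by role; red circles are H9 with shRNA, violet squares arsenite-treated HEK293T with siRNA, and open symbols have an adjusted p of 0.05 or more. H9 values reach 1.85 (PLK2), and no called HEK293T value exceeds 0.48 (SESN1) or lies below -0.53 (MDM2).

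MDM2 had 21.6 and 22.3 CPM in the eIF2A siRNA libraries, against 31.2 and 32.2 CPM in the controls. The siRNA libraries were lower than both controls, and MDM2 fell by 0.53 ± 0.062 (SE) on the log2 scale (adjusted p = 3.09e-08), and by 0.48 with the trend removed. RPS27L was at 20.7 and 20.1 CPM with eIF2A siRNA against 14.7 and 15.7 CPM with control siRNA, a rise of 0.42 ± 0.071 in a gene that was not called in H9 as measured. CCNG1 had 52.5 and 52.0 CPM with eIF2A siRNA against 56.8 and 56.9 CPM with control siRNA, with a log2 fold change of -0.12 ± 0.049 (adjusted p = 0.0541) as measured and -0.14 (called lower) with the trend removed. With no trend removed, CCNG1 was also called lower with DESeq2 size factors (-0.126, adjusted p = 0.0476) and upper-quartile scaling (-0.135, adjusted p = 0.0332). FBXO22 had 47.0 and 48.1 CPM with eIF2A siRNA against 41.9 and 45.1 CPM with control siRNA, not called as measured and called higher with the trend removed (0.23) and without control replicate 2 (0.18, adjusted p = 0.0216). TP53INP1 was near the limit of detection, with 14 and 13 counts with eIF2A siRNA against 4 and 11 counts in controls, and was not called. PPM1D (-0.079) and ZMAT3 (0.031) were not called with all libraries. PPM1D depended on a single library, with -0.19 without control replicate 1.

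CDKN1A was at 31.1 and 31.2 CPM in the eIF2A siRNA libraries, against 22.3 and 24.1 CPM in the controls, with no overlap, and rose by 0.42 ± 0.066 (adjusted p = 5.78e-06), or 0.43 with the trend removed. BTG2 was at 68.4 and 66.6 CPM with eIF2A siRNA against 58.8 and 63.0 CPM with control siRNA, a rise of 0.14 ± 0.048 (adjusted p = 0.0199) that was not called with the trend removed. Nor was it called without control replicate 1 (0.10, adjusted p = 0.129) or without siRNA replicate 1 (0.13, adjusted p = 0.151). The other 4 arrest genes had no call with all libraries, with log2 fold changes between 0.018 and 0.27. SERTAD1 depended on a single library, at 0.12 with all libraries and 0.21 without control replicate 1.

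The death genes held 5 of the 10 rises. The other 4 were not called with all libraries, at 0.51 (FAS), 0.13 (PMAIP1), -0.057 (TNFRSF10B) and -0.26 (APAF1). TNFRSF10B depended on a single library, with -0.12 without control replicate 2. BBC3 was at 18.6 and 20.8 CPM with eIF2A siRNA against 15.3 and 14.7 CPM with control siRNA (log2 fold change 0.39 ± 0.075, adjusted p = 1.04e-04) and PHLDA3 at 15.2 and 16.0 CPM with eIF2A siRNA against 10.9 and 12.2 CPM with control siRNA (0.42 ± 0.085, adjusted p = 1.98e-04). BAX was at 152 and 151 CPM with eIF2A siRNA against 132 and 127 CPM with control siRNA and rose by 0.23 ± 0.042. For these genes each siRNA library exceeded each control, and the calls held with the trend removed. TRIAP1 had 59.6 and 59.7 CPM with eIF2A siRNA against 52.9 and 53.1 CPM with control siRNA, a rise of 0.17 ± 0.047 that was not called with the trend removed. AEN had 130.2 and 133 CPM with eIF2A siRNA against 124 and 122 CPM with control siRNA and rose by 0.098 ± 0.036 (adjusted p = 0.0351). Without siRNA replicate 1, control replicate 2 or siRNA replicate 2, AEN stood at 0.11, 0.087 and 0.086 and was not called (adjusted p = 0.0772, 0.101 and 0.194).

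Of the repair genes, DDB2 alone was called. It was at 25.6 and 25.6 CPM in the eIF2A siRNA libraries, against 30.0 and 29.8 CPM in the controls, with close replicates, and fell by 0.22 ± 0.058 (adjusted p = 0.0031). FDXR was at 47.3 and 44.9 CPM with eIF2A siRNA against 65.3 and 60.6 CPM with control siRNA and fell by 0.45 ± 0.050 (adjusted p = 1.32e-08). Both falls were called with the trend removed as well. SESN1 was at 8.12 and 8.98 CPM with eIF2A siRNA against 5.40 and 6.66 CPM with control siRNA, a rise of 0.48 ± 0.11 (adjusted p = 0.00126), and TIGAR at 11.4 and 12.3 CPM with eIF2A siRNA against 9.02 and 10.3 CPM with control siRNA, a rise of 0.28 ± 0.097 (adjusted p = 0.0248). The TIGAR call was lost with the trend removed, without control replicate 1 (0.21, adjusted p = 0.173) and without siRNA replicate 2 (0.23, adjusted p = 0.187).

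Reaching a call in one line and not in the other does not show that the lines differ, so the difference of the log2 fold changes was tested directly, H9 minus HEK293T. The stem cell line and the arsenite-treated line also differ in treatment and in the kind of RNA interference, which cannot be told apart. As measured, the change was more positive in H9 for 18 members, against 31.1% of all genes, and more negative for 6, against 27.0%, with a median difference of 0.79. Without the trend there were 14, against 20.5%, and 4, against 22.1%, with a median of 0.35. With DESeq2 size factors they were 16, against 25.6%, and 7, against 34.7%; with upper-quartile scaling 19, against 34.5%, and 5, against 22.8%. MDM2 had the widest gap of the members as measured, 2.20 ± 0.096 (adjusted p = 4.41e-19), called higher in H9 and lower in HEK293T. Its gap with the trend removed was 1.08 (adjusted p = 1.11e-11).

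Of the 6 arrest genes, 3 differed in both fits. CDKN1A rose in both lines and more in H9, by 0.92 ± 0.099 (adjusted p = 7.36e-10), or 1.28 with the trend removed. The gap was 1.36 ± 0.11 for BTG2 and 1.58 ± 0.24 for PLK2, with 1.38 and 1.35 when the trend was removed, all called. The same held for ZMAT3, at 1.67 ± 0.28 and 1.76, for TNFRSF10B, at 0.83 ± 0.061 and 0.67, and for POLH, at 0.67 ± 0.11 and 0.38. FDXR and DDB2, both lower in HEK293T, differed by 0.51 ± 0.074 and 0.22 ± 0.077. The DDB2 difference was not called with DESeq2 size factors (0.059, adjusted p = 0.544), nor without H9 shRNA replicate 1 (0.19) or H9 control replicate 2 (0.19).

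BBC3 rose by similar amounts, with a difference of 0.063 ± 0.10 as measured (adjusted p = 0.642), which does not show that the responses were equal, and 0.44 with the trend removed (adjusted p = 5.83e-04). PHLDA3 differed by 0.25 ± 0.11 (adjusted p = 0.0499). That call was lost without any 1 of 6 of the 8 libraries, with values of 0.15 (control replicate 2 of HEK293T left out, adjusted p = 0.342) to 0.28, and with DESeq2 size factors (0.089, adjusted p = 0.497). BAX, AEN and TRIAP1 were the other way round as measured, at -0.39 ± 0.059, -0.23 ± 0.049 and -0.38 ± 0.068, lower in H9 and higher in HEK293T. With the trend removed BAX had 0.14, AEN -0.0075 (adjusted p = 0.937) and TRIAP1 -0.60. Only TRIAP1 of these 3 kept its sign and its call.

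Before any knockdown effect, the lines already carried different amounts of these transcripts. Between the control groups, H9 minus HEK293T, 12 members were called higher, against 42.3% of all genes, and 14 lower, against 41.2%, so the members were called about as often as other genes. After removal of the trend 14 were higher, against 43.2%, and 11 lower, against 40.7%. Cell line, arsenite and the kind of RNA interference cannot be told apart in this comparison. BTG2 stood at 5.78 and 5.33 CPM in H9 controls, against 58.8 and 63.0 CPM in HEK293T controls, a log2 difference of -3.46 ± 0.079 (adjusted p = 7.68e-30). MDM2 was lower in H9 controls too, at -1.39 ± 0.074, as were POLH (-2.10 ± 0.081) and PPM1D (-1.97 ± 0.10). As measured, MDM2 after knockdown stood at 38.5 and 38.5 CPM in H9, above the 21.6 and 22.3 CPM in HEK293T. The order of the controls was the reverse. With the trend removed the control difference was -1.50, wider than the gap of 1.08 between the changes of the lines. In that fit MDM2 stayed lower in H9 after knockdown, so the order turned only as measured.

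TP53I3 was much higher in H9 controls, at 94.4 and 95.8 CPM against 15.4 and 16.8 CPM in HEK293T controls (2.55 ± 0.058). TP53INP1 (2.73 ± 0.35), RRM2B (1.31 ± 0.18), PHLDA3 (1.25 ± 0.081), RPS27L (1.23 ± 0.068) and AEN (1.10 ± 0.035) were higher in H9 controls as well. CDKN1A was at 15.5 and 18.7 CPM in H9 controls against 22.3 and 24.1 CPM in HEK293T controls (-0.45 ± 0.078). The calls of 5 members between the controls depended on single libraries. FAS (-0.94) was not called without any 1 of 7 of the 8 libraries, at -0.63 to -1.03. SESN1 (-0.32) was not called without HEK293T control replicate 2 (-0.14) or either H9 control (-0.30 and -0.33), and SPATA18 (-1.08) without H9 control replicate 1 (-0.77). ZMAT3 (-0.52) was not called without HEK293T control replicate 2 (-0.41) or H9 control replicate 2 (-0.30), and XPC (0.16) without HEK293T control replicate 1 (0.11) or H9 control replicate 2 (0.15).

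**Figure D5:**
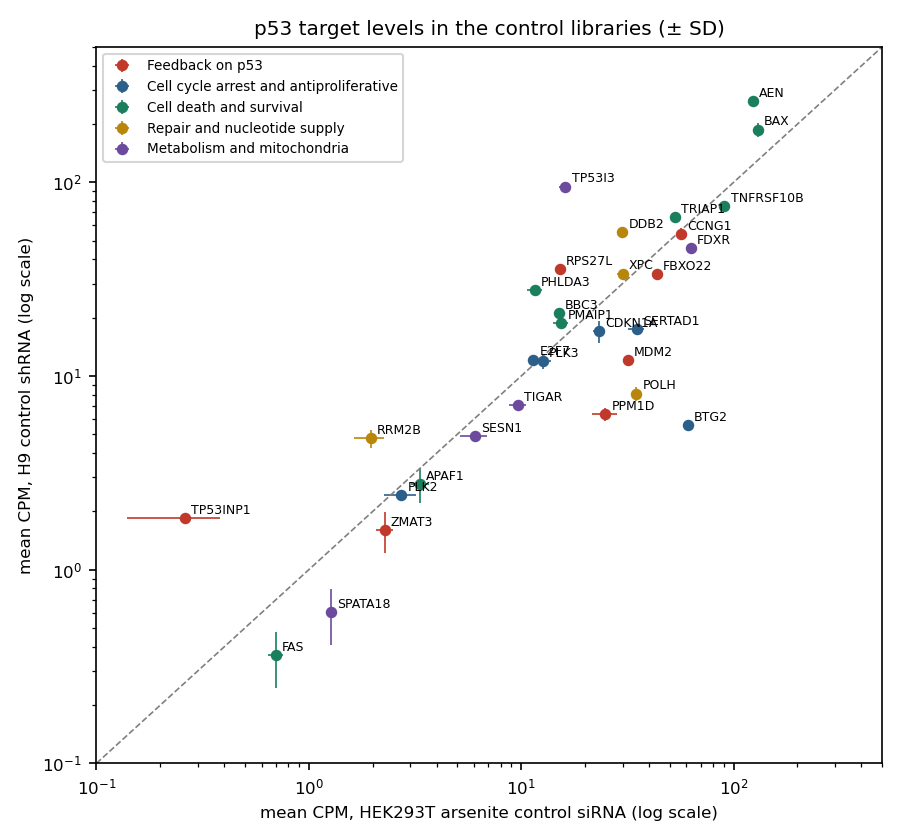
Mean CPM (± SD, 2 libraries) of the 31 p53 target genes in H9 control shRNA (vertical) and arsenite-treated HEK293T control siRNA (horizontal), both on log axes, coloured by role; the dashed line marks equal levels. BTG2, POLH, PPM1D and MDM2 lie below the line and TP53I3, PHLDA3 and TP53INP1 above it.

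The genes around the members were read from 3 further lists. Their counts stand against the same shares of all genes as above: in H9, 37.0% higher and 34.3% lower as measured, and 23.9 and 25.5% with the trend removed; in HEK293T, 14.1 and 14.7% as measured, and 13.9 and 13.4% with the trend removed. Of 19 tested direct regulators of p53, 14 (73.7%) rose and 2 (10.5%) fell in H9 (median 0.72), and 8 (42.1%) rose and 1 (5.26%) fell with the trend removed (median 0.20). In HEK293T, 2 (10.5%) rose and 3 (15.8%) fell (median 0.020), which is near the shares of all genes. MDM4, the MDM2 relative that masks p53, had 22.1 and 20.2 CPM with eIF2A shRNA against 9.28 and 9.58 CPM with control shRNA in H9, a rise of 1.17 ± 0.091 that was not called with the trend removed (0.14, adjusted p = 0.218). In HEK293T MDM4 was at 16.0 and 14.3 CPM with eIF2A siRNA against 22.4 and 22.8 CPM with control siRNA. It fell there in both fits, by 0.58 as measured and by 0.54 with the trend removed.

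Other regulators with rises in H9 in both fits were the deubiquitinase USP7 (1.18 ± 0.053, 0.52 with the trend removed), the adaptor TP53BP1 (1.16 ± 0.057, 0.66), the kinase HIPK2 (1.23 ± 0.072, 0.70) and the acetyltransferase EP300 (0.75 ± 0.042, 0.45). In HEK293T the checkpoint kinase CHEK1 rose (0.35 ± 0.066), as did the ubiquitin ligase RCHY1 (0.30 ± 0.096), and the p53 cofactor PPP1R13B fell (-0.22 ± 0.060). The RCHY1 call was lost without control replicate 1 (0.26) or siRNA replicate 1 (0.22), and that of PPP1R13B without control replicate 2 (-0.18). CDKN2A, which also encodes the MDM2 inhibitor ARF, stood at 291 and 291 CPM with eIF2A siRNA against 307 and 326 CPM with control siRNA in HEK293T and at no more than 0.198 CPM in any H9 library. Its small fall in HEK293T (-0.12 ± 0.034) was not called without siRNA replicate 1 (-0.12), control replicate 2 (-0.077) or siRNA replicate 2 (-0.12).

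Of 29 tested p53 targets outside the members, 16 (55.2%) rose and 4 (13.8%) fell in H9 (median 0.34), and 18 (62.1%) rose and 3 (10.3%) fell with the trend removed (median 0.32). With DESeq2 size factors the split was 12 higher and 9 lower, where 31.3% of all genes were higher and 42.0% lower. In HEK293T, 6 (20.7%) rose and 3 (10.3%) fell (median 0.042). GDF15, a stress-induced secreted factor, rose in both lines and both fits. It was at 14.3 and 16.6 CPM in the eIF2A shRNA libraries, against 6.67 and 6.76 CPM in the controls in H9 (log2 fold change 1.20 ± 0.11) and at 3.30 and 2.59 CPM with eIF2A siRNA against 1.35 and 1.38 CPM with control siRNA in HEK293T (1.10 ± 0.20). The helicase ASCC3 was opposite in the lines, as MDM2 was, at 1.75 ± 0.092 in H9 and -0.62 ± 0.12 in HEK293T. TRIM22 (1.40 ± 0.15) and TNFRSF10D, a decoy receptor for TRAIL (0.86 ± 0.068), rose in H9, and PANK1 of coenzyme A synthesis rose only as measured (0.80 ± 0.080, -0.11 with the trend removed). TRIM22 had no count in any HEK293T library. SESN2 (-0.30 ± 0.034) and PIDD1 (-0.45 ± 0.053) fell in HEK293T, and the desmosome-linked PERP rose there (0.36 ± 0.052) and fell in H9 (-0.24 ± 0.063).

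The 14 cell cycle genes that p21 represses through the DREAM complex did not move as one group in H9, where 5 (35.7%) rose and 7 (50%) fell (median -0.078), and 2 (14.3%) rose and 8 (57.1%) fell with the trend removed (median -0.13). The split was 4 higher and 9 lower with DESeq2 size factors, and 7 higher and 6 lower with upper-quartile scaling. CDC20, the anaphase activator, was at 397 and 397 CPM with eIF2A shRNA against 603 and 622 CPM with control shRNA and fell by 0.63, and BIRC5, also called survivin, at 287 and 287 CPM with eIF2A shRNA against 401 and 404 CPM with control shRNA, a fall of 0.49. Both fell in both fits. KIF23 and BUB1 of mitosis rose in both fits, at 1.57 ± 0.080 and 1.13 ± 0.058 as measured. RRM2, the S phase subunit of ribonucleotide reductase, rose as measured only (0.66 ± 0.038, 0.020 with the trend removed). AURKA rose by 0.14 ± 0.045 as measured, was not called without H9 control replicate 1 (0.10, adjusted p = 0.104), and had -0.22 with the trend removed.

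In HEK293T, 7 (50%) of these 14 genes rose and 1 (7.14%) fell (median 0.11), and 4 (28.6%) rose and 1 (7.14%) fell with the trend removed. The mitotic cyclin CCNB1 was at 308 and 309.6 CPM with eIF2A siRNA against 255 and 249.9 CPM with control siRNA and rose by 0.29 ± 0.032. BIRC5 (0.17 ± 0.030) and AURKA (0.17 ± 0.039) rose in both fits. Of the smaller rises, CCNB2 (0.18 ± 0.046) and RRM2 (0.12 ± 0.035) were not called without siRNA replicate 1 (0.16 and 0.10). BUB1 (0.23 ± 0.070) was not called without siRNA replicate 1 or control replicate 2 (both 0.16), and CDC20 (0.10 ± 0.032) without control replicate 2 (0.065) or siRNA replicate 2 (0.076).

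Markers of other cell states differed between the H9 groups gene by gene, and 1 gene carried most of each sum. Neural markers (5 of 5 detected) summed to 180 and 181 CPM with eIF2A shRNA against 358 and 375 CPM in controls. Most of that was TUBB3, at 164 and 165 CPM with eIF2A shRNA against 344 and 360.4 CPM with control shRNA. As measured, SOX1 also fell (log2 fold change -0.69 ± 0.18), while DCX (1.54 ± 0.32) and MAP2 (0.33 ± 0.11) rose. PAX6 was under 1 CPM in both groups. With the trend removed TUBB3 still fell (-0.63) and MAP2 was called lower (-0.71, adjusted p = 1.29e-06). SOX1 (-0.35, adjusted p = 0.101) and DCX (0.52, adjusted p = 0.196) were then not called. Mesoderm and endoderm markers summed to 73.6 and 68.5 CPM with eIF2A shRNA against 35.0 and 35.8 CPM in controls, with TBXT, EOMES, SOX17 and GATA4 under 1 CPM in both groups. There KDR made up most of the sum, at 68.6 and 64.4 CPM with eIF2A shRNA against 28.9 and 29.0 CPM with control shRNA (log2 fold change 1.20). FOXA2 went the other way and fell (-0.67 ± 0.20). With the trend removed KDR rose by 0.63 and FOXA2 was not called (-0.31, adjusted p = 0.199). Fibroblast markers summed to 842 and 855 CPM with eIF2A shRNA against 973 and 980 CPM in controls, with COL3A1, DCN and LUM under 1 CPM in both groups. The lower sum was that of THY1, at 592 and 594 CPM with eIF2A shRNA against 788 and 794 CPM with control shRNA, whereas COL1A1 (0.45 ± 0.043) and COL1A2 (0.48 ± 0.044) rose. With the trend removed THY1 (-0.19), COL1A1 (0.51) and COL1A2 (0.46) kept their calls. Trophoblast markers summed to 16.9 and 16.2 CPM with eIF2A shRNA against 25.5 and 26.2 CPM in controls, nearly all of it KRT7, with CDX2, GATA3, TFAP2A and CGA under 1 CPM in both groups. KRT7 fell as measured (-0.66 ± 0.081) and was not called with the trend removed (-0.15, adjusted p = 0.13). Of the pluripotency markers, whose sum was lower with eIF2A shRNA, L1TD1 (1.01 ± 0.045) and SOX2 (0.47 ± 0.049) rose. POU5F1 (-0.48 ± 0.135), DNMT3B (-0.15 ± 0.029) and LIN28A (-0.11 ± 0.033) fell, and NANOG was not called (-0.068 ± 0.056). With the trend removed NANOG was called lower (-0.77), as were POU5F1 (-0.51), LIN28A (-0.40) and DNMT3B (-0.12). L1TD1 (0.19) and SOX2 (0.49) were still called higher. In HEK293T the pluripotency markers summed to 137 and 138 CPM with eIF2A siRNA against 149 and 151 CPM in controls. Nearly all of that sum was DNMT3B, which fell in both fits (-0.14 ± 0.033, -0.13 with the trend removed). The neural markers summed there to 46.4 and 48.6 CPM with eIF2A siRNA against 48.2 and 49.2 CPM in controls. The part of these states in the p53 target values was not tested. The strand setting of the count is not given, and exons of APAF1, MDM2, PLK3, SESN1, TNFRSF10B, TP53I3, XPC and CDKN1A overlap a gene on the opposite strand, and those of TIGAR, PHLDA3 and MDM2 one on the same strand, in GENCODE 29. Reads of such partners could enter their counts, and how many did was not tested.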

How the data were processed

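Polyadenylated RNA was measured in 8 libraries made with a TruSeq stranded kit, per the labels' protocols. Reads went through cutadapt and STAR 2.5.2b on hg19, per the submitters' processing notes. No source used here names the counter, its strand setting or the annotation version. The authors deposited raw, whole-number counts for each RefSeq accession, with no normalization. Counters of unassigned reads (14.95 to 20.84% without a feature) entered neither library sizes nor tests. Of 19305 accessions, 18888 were named from RefSeq and 225 from GENCODE 29, and 192 stayed unnamed; names do not rest on hg19 coordinates, and promoter coordinates are those of RefSeq on GRCh38.p14.

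Counts were tested with edgeR 4.0.16 (R 4.3.3): filterByExpr by group, TMM scaling, 4 group means on all 8 libraries (4 residual degrees of freedom), robust quasi-likelihood F tests, two-sided, Benjamini-Hochberg adjusted over the 14565 genes that passed the filter. Calls were made under an adjusted p of 0.05. SE is the log2 fold change over the square root of F. CPM are counts scaled to library size with TMM factors. The GC and length trend was fitted per library on each gene's log2 CPM minus its mean over all libraries of both lines. Natural splines (5 degrees of freedom each) of GENCODE 29 transcript GC content and log2 length were used. Genes of low mean level were left out of this fit, and their trend was predicted from it. The trend entered as offsets, with TMM estimated anew. All 31 members and 14489 genes had both properties.

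Alternatives were DESeq2 1.42.0 and its size factors, upper-quartile scaling, limma-voom (limma 3.58.1), other filters, 1 line alone, the set number as a block, libraries left out and an adjusted p under 0.01. Removing GC content alone, crossed pairing, and trend removal with each library left out were chosen after seeing the data. Named genes were EIF2A, the members, MDM4 and, per list and line, up to 5 called genes with the smallest p. A gene of the regulator list is not reported here. The members and lists were chosen with earlier results of these data known. The code was tested on simulated data. Depth limits rare transcripts such as FAS and SPATA18. The ribosome profiling named in the design was not analysed here.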

Additional observations from a re-analysis of the deposited data

Results flagged for a closer look

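The results given here stood out because the log2 fold change of a gene differed between the lines, H9 minus HEK293T, with an adjusted p under 0.05 as measured by edgeR's quasi-likelihood test. Each value is that difference, positive where the change was more positive in H9. Cell line, arsenite and the kind of RNA interference cannot be told apart in it. With the trend removed, some of these differences were not called (adjusted p = 0.0703 to 0.937). They were those of PPM1D, E2F7, SERTAD1, PMAIP1, APAF1, AEN, RRM2B, SESN1, TP53I3, PANK1 and RRM2.

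Among the feedback and arrest genes the differences were positive for MDM2 (2.2, 1.08 with the trend removed), ZMAT3 (1.67, 1.76 with the trend removed), CCNG1 (1.16, 0.477 with the trend removed) and PPM1D (0.79, 0.179 with the trend removed). They were also positive for PLK2 (1.58, 1.35 with the trend removed), BTG2 (1.36, 1.38 with the trend removed), E2F7 (0.945, 0.0959 with the trend removed) and CDKN1A (0.923, 1.28 with the trend removed). They were negative for SERTAD1 (-0.48, -0.2 with the trend removed) and RPS27L (-0.333, -1.22 with the trend removed). Of the death genes, the positive ones were APAF1 (1.11, 0.396 with the trend removed), TNFRSF10B (0.833, 0.667 with the trend removed), PMAIP1 (0.794, 0.174 with the trend removed) and PHLDA3 (0.246, 0.564 with the trend removed). The negative ones were BAX (-0.394, 0.139 with the trend removed), TRIAP1 (-0.377, -0.6 with the trend removed) and AEN (-0.227, -0.0075 with the trend removed). For repair and metabolism the positive values were those of RRM2B (1.24, 0.251 with the trend removed), POLH (0.669, 0.38 with the trend removed) and DDB2 (0.216, 0.555 with the trend removed). To these came SPATA18 (1.85, 1.22 with the trend removed), SESN1 (0.953, 0.373 with the trend removed) and FDXR (0.513, 0.928 with the trend removed), and TP53I3 was negative (-0.281, 0.121 with the trend removed).

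Outside the members, positive values were found for the regulators MDM4 (1.75, 0.682 with the trend removed), TP53BP1 (1.3, 0.777 with the trend removed), USP7 (1.14, 0.546 with the trend removed) and HIPK2 (1.14, 0.549 with the trend removed). Smaller ones were found for EP300 (0.801, 0.424 with the trend removed), PPP1R13B (0.657, 0.662 with the trend removed) and CHEK1 (0.365, -0.412 with the trend removed). Of the further targets, positive values were found for ASCC3 (2.37, 1.24 with the trend removed), TNFRSF10D (0.904, 0.606 with the trend removed) and PANK1 (0.601, -0.322 with the trend removed). The same was seen for PIDD1 (0.397, 0.66 with the trend removed) and SESN2 (0.34, 0.571 with the trend removed), and PERP was negative (-0.602, -1.41 with the trend removed). Of the genes repressed through p21, KIF23 (1.6, 0.92 with the trend removed), BUB1 (0.893, 0.278 with the trend removed) and RRM2 (0.539, -0.0313 with the trend removed) had positive values. Negative ones were those of CDC20 (-0.727, -0.281 with the trend removed), BIRC5 (-0.655, -0.53 with the trend removed), CCNB1 (-0.282, -0.726 with the trend removed) and CCNB2 (-0.144, -0.261 with the trend removed). The CCNB2 difference was not called without HEK293T siRNA replicate 1 or 2, HEK293T control replicate 2, H9 control replicate 1 or H9 shRNA replicate 2, at -0.11 to -0.17.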

How the results depend on the processing

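Most results kept their direction and side of the threshold under scaling, filters, tests and single libraries left out. The GC and length trend changed most, and the cause of that trend was not tested. Of the members, 20 to 23 rose in H9 under the other scalings and tests and 19 with the trend removed. The number that fell in H9 was 5 as measured and 3 with the trend removed, with the replicate block added to it, and with the trend of GC content alone removed. It was 7 with DESeq2 size factors or the DESeq2 test, and 4 with upper-quartile scaling. The median of the members in H9 was 0.72 as measured, 0.57 with DESeq2 size factors or the DESeq2 test, 0.33 with the trend removed (0.335 with the block) and 0.325 with GC content alone. DESeq2 size factors put the median of all genes in H9 at -0.13, against 0.024 with TMM. The difference of EIF2A between the lines was -0.63 with the trend removed, -0.64 with the block added and -0.84 with GC content alone, each called, against -0.021 and no call as measured.

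With the DESeq2 test 3 regulators were called in HEK293T (5 as measured), and 5 further targets (9 as measured), also 5 at an adjusted p under 0.01. With the trend removed, 9 regulators were called in H9 (16 as measured), also with the block, and 5 genes repressed through p21 in HEK293T (8 as measured), or 3 with the block. The feedback genes then had 4 calls in HEK293T (2 as measured) and the metabolic genes 2 in H9 (4 as measured), with and without the block. The arrest genes had 1 call in HEK293T (2 as measured) with the DESeq2 test, with either trend removal, with the block and trend removal, and at an adjusted p under 0.01.

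With each library left out in turn as measured, members called in H9 numbered 21 higher and 4 to 5 lower. In HEK293T there were 8 to 10 higher and 3 to 4 lower, and in the difference 16 to 19 higher and 6 to 7 lower. With the trend removed as well, these ranges were 18 to 20 and 3 in H9, 6 to 10 and 3 to 5 in HEK293T, and 12 to 16 and 3 to 4 in the difference. The HEK293T median ranged from 0.073 to 0.16, the highest without control replicate 2. Calls in HEK293T ranged from 3 to 5 for regulators (3 without siRNA replicate 1), 4 to 10 for genes repressed through p21 (4 without it) and 1 to 2 for arrest genes (1 without it). A library left alone in its group is assumed to vary like the others.

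Signs are compared here only for values called in at least 1 of the fits set side by side, so values called in neither that crossed 0 are not listed. With the GC and length trend removed, the sign turned in H9 RPS27L (-0.80, 0.087 as measured), PLK3 (0.33, -0.057 as measured), BAX (0.38, -0.17 as measured), AEN (0.10, -0.13 as measured), DDB2 (0.32, -0.0085 as measured), TIGAR (-0.16, 0.54 as measured), TP53I3 (0.085, -0.34 as measured), CHEK1 (-0.10, 0.72 as measured), RCHY1 (-0.19, 0.39 as measured), PIDD1 (0.28, -0.052 as measured), PANK1 (-0.11, 0.80 as measured), CCNB1 (-0.51, 0.0070 as measured), AURKA (-0.22, 0.14 as measured) and CCNB2 (-0.16, 0.035 as measured). It turned in the difference between the lines BAX (0.14, -0.39 as measured), TIGAR (-0.39, 0.26 as measured), TP53I3 (0.12, -0.28 as measured), CHEK1 (-0.41, 0.36 as measured), RCHY1 (-0.49, 0.092 as measured), PANK1 (-0.32, 0.60 as measured) and RRM2 (-0.031, 0.54 as measured). It turned between the controls CCNG1 (0.47, -0.065 as measured). With the replicate block added to this fit, the values of these genes were within rounding, apart from BAX in H9 (0.39), SESN1 between the controls (0.088), TIGAR in the difference between the lines (-0.40), TP53I3 in H9 (0.084), CHEK1 in the difference between the lines (-0.42), PANK1 in the difference between the lines (-0.33) and RRM2 in the difference between the lines (-0.032). With the trend of GC content alone removed, the signs that turned were in H9 RPS27L (-0.57), PLK3 (0.33), BAX (0.18), AEN (0.14), DDB2 (0.19), TIGAR (-0.25), CHEK1 (-0.053), RCHY1 (-0.48), PIDD1 (0.37), CCNB1 (-0.66), AURKA (-0.34) and CCNB2 (-0.40); in the difference between the lines PMAIP1 (-0.11), AEN (0.029), TIGAR (-0.50), TP53I3 (0.023), CHEK1 (-0.36), RCHY1 (-0.82), PANK1 (-0.012) and RRM2 (-0.053); between the controls CCNG1 (0.30) and FBXO22 (0.023). With DESeq2 size factors it turned in H9 for SESN2 (-0.12), CCNB1 (-0.15), AURKA (-0.015) and CCNB2 (-0.12). With the DESeq2 test it turned in H9 for SESN2 (-0.12), CCNB1 (-0.15) and AURKA (-0.015).

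The set numbers do not pair the samples by the labels. Deviations of equally numbered libraries correlated at -0.124 in HEK293T and -0.033 in H9 (8243 genes). With the set number as a replicate block, members called were 21 higher and 5 lower in H9, 9 and 3 in HEK293T, and 17 and 6 in the difference. With the HEK293T numbers crossed, 10 were higher and 4 lower in HEK293T. With 2 libraries a group, rare transcripts are the least certain.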
